A study of Mus musculus with 6 samples.

Results

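Hepatocyte growth factor and the EGF family are paracrine signals that drive hepatocyte survival and regeneration. 10 genes of these circuits were followed in mouse liver after deletion of the kinase TAK1 in endothelium: the ligand Hgf, its activating protease Hgfac, the protease inhibitors Spint1 and Spint2, the HGF receptor Met, the EGF-family ligands Areg, Ereg and Hbegf, and the receptors Egfr and Erbb3. They were chosen by name, and all 10 were found among the 24318 rows of the deposited expression table.

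All mice were on a C57BL/6 background with the genotype VEcadCreERT2/TAK1flox/flox, in which both copies of Map3k7, the gene of TAK1, are flanked by loxP sites and a tamoxifen-inducible Cre recombinase is driven by the VE-cadherin promoter of endothelial cells. The 3 knockout libraries were from livers of mice given tamoxifen and the 3 control libraries from livers listed with no treatment, so that TAK1 deletion and tamoxifen itself cannot be told apart. The labels used here give neither age nor sex. They call the libraries triplicates and do not say whether each is a separate animal, so the tests speak of the spread among these libraries, which may be technical in part. The descriptions of knockouts 1 and 3, but of no other library, carry an added suffix that the labels do not explain.

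HGF is secreted mainly by stellate and endothelial cells of the liver as an inactive single chain. Proteases such as the HGF activator cleave it, membrane-anchored Kunitz inhibitors (the products of Spint1 and Spint2) restrain those proteases, and the active form signals through the tyrosine kinase receptor MET on hepatocytes. EGF-family ligands are made as membrane precursors, released by sheddases, and bind EGFR. ERBB3 binds neuregulins and signals through its partners, since its own kinase is weak.

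Values are FPKM, fragment counts divided by transcript length and by the number of mapped fragments, so levels of different genes are compared per length. Log2 fold changes of knockout against control, given with their standard error, were taken after adding 0.5 FPKM to each value, so the change of low genes is understated. A gene was called where its Benjamini-Hochberg adjusted p over the 11842 genes tested was under 0.05 (limma, two-sided). The total number of fragments per library is unknown. From the spacing of the lowest values, relative depth spanned 0.921 to 1.08 with control 1 as the unit, on the assumption that mapped fragments alone set each library's scale. Of all genes tested, 27.0% were called and 14.1% were called higher, which is 52.1% of the calls. With every library rescaled to the same total, the median over all tested genes went from -0.0007 to -0.11 (log2) and 39.5% of calls were higher. Map3k7 itself measured 8.498, 9.02 and 9.14 FPKM in controls and 9.28, 9.31 and 7.35 in knockouts (log2 fold change -0.04 ± 0.16, limma adjusted p = 0.868). Cells outside endothelium also express it, so this whole-liver value does not check the labels. All 8 hepatocyte markers, among them Apoa1 and Ttr, were above 0 in every library.

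Promoters are shown for the 4 members matched in the RefSeq table whose levels did not overlap between groups, Hgf and Egfr being higher and Hgfac and Met lower in knockouts. Each run is the 250 bases before an annotated start (for Hgf, the more upstream of those listed), from RefSeq on GRCm38.p6, whereas the expression values were made on mm9. The search left out the entries of a chromosome and matched 7 of the 10 members. A member without a match may thus still be listed there. Hgf lies at chr5:16553245-16553494, Hgfac at chr5:35041259-35041508, Met at chr6:17463707-17463956 and Egfr at chr11:16751953-16752202, all on the plus strand. Capitals mark matches to any of 10 motifs searched on both strands.
Hgf: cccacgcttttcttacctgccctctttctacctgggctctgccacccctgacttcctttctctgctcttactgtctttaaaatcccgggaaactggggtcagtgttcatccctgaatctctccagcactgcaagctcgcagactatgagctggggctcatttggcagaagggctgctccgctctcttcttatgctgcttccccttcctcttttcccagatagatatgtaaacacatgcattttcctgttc
Hgfac: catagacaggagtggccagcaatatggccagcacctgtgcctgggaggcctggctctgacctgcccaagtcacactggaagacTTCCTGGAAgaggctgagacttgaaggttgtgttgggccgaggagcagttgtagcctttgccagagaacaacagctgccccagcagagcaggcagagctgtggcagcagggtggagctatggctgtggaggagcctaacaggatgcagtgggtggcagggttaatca
Met: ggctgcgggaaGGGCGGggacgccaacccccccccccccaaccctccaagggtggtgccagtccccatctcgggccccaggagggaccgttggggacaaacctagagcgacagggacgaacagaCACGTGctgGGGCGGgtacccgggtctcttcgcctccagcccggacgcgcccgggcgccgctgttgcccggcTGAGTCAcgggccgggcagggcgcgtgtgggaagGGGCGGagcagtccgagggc
Egfr: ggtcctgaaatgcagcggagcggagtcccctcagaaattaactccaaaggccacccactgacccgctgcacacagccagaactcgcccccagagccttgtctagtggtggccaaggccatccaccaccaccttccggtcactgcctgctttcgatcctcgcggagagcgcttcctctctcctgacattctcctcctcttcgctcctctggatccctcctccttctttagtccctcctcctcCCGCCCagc
The Met window was rich in G and C (74.0%, against 50.8% for Hgf). It held 3 matches to the Sp1 box GGGCGG, which 32.7% of 32851 promoter windows of this length hold. It also held a match to the AP-1 motif TGANTCA (6.75% of windows) and a match to the E-box CACGTG (6.02%). Hgfac, a gene expressed mainly by hepatocytes, held a match to the STAT motif TTCNNNGAA (7.02%), and Egfr a match to the Sp1 box on the opposite strand. None of the 10 motifs was found in this Hgf window. The others searched were TGACGTCA (cyclic AMP response element, 1.55% of windows), GGNNTTTCC (a form of the NF-kB motif, 4.93%), TTGCNNAA (C/EBP, 9.56%), CAAAGTCCA (HNF4, 0.383%), TATAAA (12.4%) and CCAAT (33.9%). No matches overlapped each other in the 4 windows shown. A match describes letters only.

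Of the 10 members, 8 reached the mean of 0.5 FPKM needed for testing, and Spint1 and Ereg did not. Hgfac and Erbb3 fell in knockouts and no member rose, so 2 of 8 were called, where 27.0% of all genes tested were called. Hgf, Met and Hbegf lay just outside the threshold, with adjusted p-values of 0.0514 to 0.0577. Library values did not overlap between groups for 7 of the 10 members and for 6 of the 8 tested, against 43.5% of all genes tested. The share of members called was thus near that of all genes, and the calls that were made were lost without most of the libraries in turn.

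**Figure D1:**
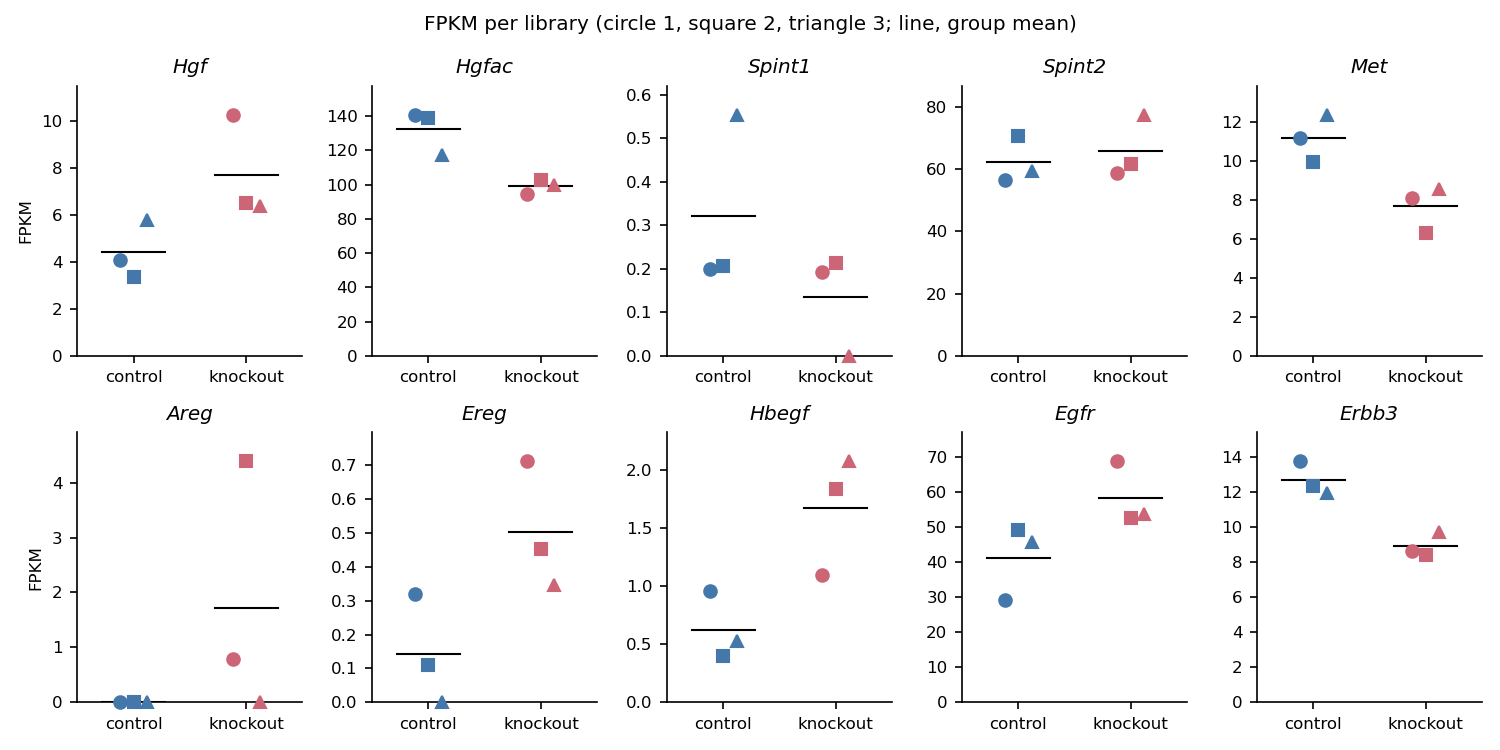
FPKM (vertical axes, each from 0) of the 10 members in the 3 control and 3 knockout libraries, with markers for the replicate number and a line at the group mean. Hgf, Ereg, Hbegf and Egfr lie higher in every knockout library than in any control, and Hgfac, Met and Erbb3 lower, while Spint1, Spint2 and Areg overlap.

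Hgf (ENSMUSG00000028864), the ligand, measured 4.07, 3.35 and 5.79 FPKM in controls and 10.3, 6.51 and 6.36 in knockouts. Knockout 1 stood well above the rest, and the lowest knockout was only slightly above control 3. The means were 4.402 ± 1.25 and 7.71 ± 2.21 FPKM (SD, n = 3 each), a ratio of 1.75. The log2 fold change of 0.74 ± 0.25 (95% interval 0.17 to 1.31) missed the threshold (limma adjusted p = 0.0565). Without control 3 it was 0.94 and passed (limma adjusted p = 0.0296), and it also passed with library weights (0.88, adjusted p = 0.0238). The alternatives spanned adjusted p-values of 0.0238 to 0.182.

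Markers of the cells that make HGF moved in opposite directions. Of 12 stellate cell markers 6 rose and none fell (median log2 fold change 0.71, against -0.0007 for all genes), and their summed level was 289 to 313 FPKM in controls and 380 to 416 in knockouts. Of 12 sinusoidal endothelial markers 8 fell and none rose (median -1.26), and their sum was 173 to 263 FPKM in controls and 49.0 to 58.4 in knockouts. Clec4g was listed at 0 in knockouts 2 and 3 and Wnt2 in knockout 1, and no marker of either list was at 0 in a control. Of the controls, control 3 had the highest Hgf and the highest sum of endothelial markers. It also had the highest stellate cell, neutrophil, and monocyte and macrophage sums, and the lowest hepatocyte sum. In whole liver, fewer cells of a type and less RNA per cell cannot be told apart, and the part of these cells in the Hgf values was not tested.

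**Figure D2:**
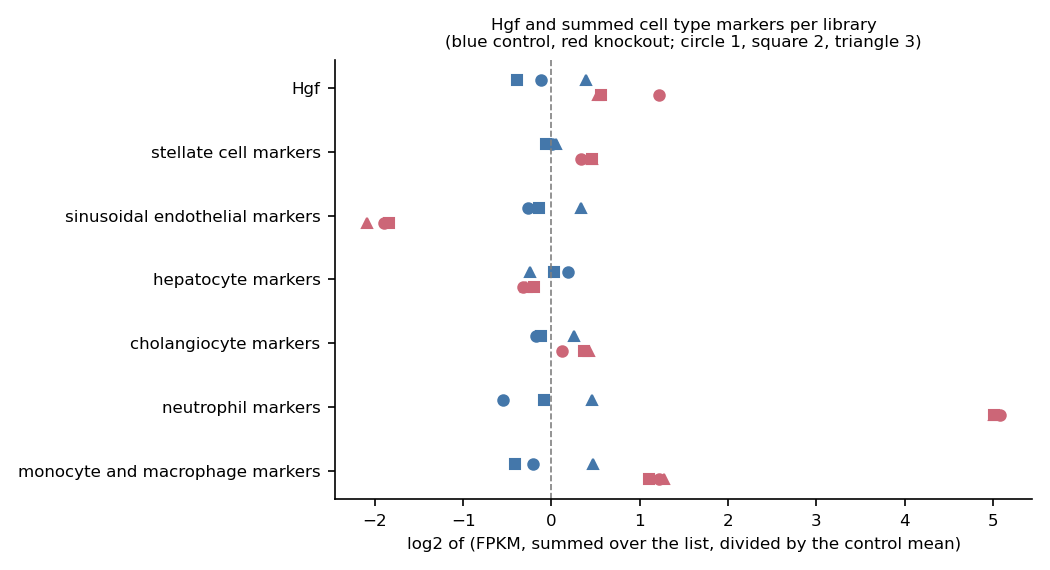
Hgf and the summed FPKM of 6 marker lists in each library, as log2 of the value over the control mean (horizontal axis; blue control, red knockout). Summed sinusoidal endothelial markers lie below every control in knockouts (49.0 to 58.4 FPKM), whereas stellate cell (380 to 416 FPKM), neutrophil and monocyte sums lie above, as Hgf does.

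Hgfac (ENSMUSG00000029102), the serum protease that cleaves HGF, was the most abundant member in both groups. It measured 141, 139 and 117 FPKM in controls and 94.4, 103 and 99.8 in knockouts. All knockouts lay under the lowest control. Its mean fell from 132 ± 12.997 to 98.9 ± 4.18 FPKM, with a log2 fold change of -0.41 ± 0.13 (95% interval -0.71 to -0.12, limma adjusted p = 0.0424). The call was lost without control 1 or 2 or any knockout library, with log2 fold changes of -0.44 to -0.37 and adjusted p-values of 0.0595 to 0.151. It held without control 3 (-0.50, adjusted p = 0.0267). Under quantile normalization the log2 fold change was only -0.027 (adjusted p = 0.880). Its alternatives spanned adjusted p-values of 0.0103 to 0.880.

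The inhibitors differed in level by orders of magnitude. Spint2 (ENSMUSG00000074227) measured 56.6, 70.5 and 59.4 FPKM in controls and 58.7, 61.5 and 77.3 in knockouts, and the groups overlapped. Its log2 fold change of 0.08 ± 0.16 had a 95% interval of -0.27 to 0.43 (limma adjusted p = 0.747), and turned to -0.041 when libraries were rescaled to the same total and to -0.042 without knockout 3. Spint1 (ENSMUSG00000027315) was near the lower limit of detection, at 0.200, 0.208 and 0.554 FPKM in controls and 0.192, 0.214 and 0 in knockouts. Once relative depth was taken into account, these values lay within 0.06 of whole steps, in the proportions 1, 1 and 3 in controls and 1, 1 and 0 in knockouts. A step may stand for a single fragment or for a fixed number of them. The exact two-sided permutation p for Spint1 was 0.3, and this design can reach no lower value than 0.1. Spint1 is an epithelial gene. Of the cholangiocyte markers, which mark the bile duct epithelium, 7 of 9 were tested, of which 2 rose and 1 fell, with summed levels of 37.3 to 50.2 FPKM in controls and 45.7 to 56.6 in knockouts. Cftr was at 0 in all controls. Sox9, 1 of the 2 that rose, had a control mean under 0.5 FPKM and was tested only through its knockout values.

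Met (ENSMUSG00000009376), the HGF receptor, measured 11.2, 9.96 and 12.4 FPKM in controls and 8.12, 6.30 and 8.59 in knockouts. The highest knockout was below the lowest control. The means were 11.2 ± 1.20 and 7.67 ± 1.21 FPKM, a ratio of 0.687. The log2 fold change of -0.52 ± 0.18 (95% interval -0.92 to -0.12) narrowly missed the threshold (limma adjusted p = 0.0577). Met passed when libraries were rescaled to the same total (-0.63, adjusted p = 0.0318, where the median gene was at -0.11) and under quantile normalization (-0.56, adjusted p = 0.0490). The alternatives spanned 0.0318 to 0.156.

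Ligand and receptor thus stood in a different proportion, and a scaling factor common to a library cancels in that proportion. The ratio of Hgf to Met FPKM within a library was 0.364, 0.337 and 0.468 in controls and 1.26, 1.03 and 0.741 in knockouts. Hgf was below Met in every control and above it in knockouts 1 and 2. Each knockout ratio exceeded each control ratio. The ratio was computed after the values were seen and is given as a description.

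The EGF-family ligands among the members were all low, at most 4.38 FPKM. Hbegf (ENSMUSG00000024486), heparin-binding EGF-like growth factor, measured 0.955, 0.396 and 0.529 FPKM in controls and 1.10, 1.84 and 2.07 in knockouts. Every knockout exceeded every control, knockout 1 by a small margin. In whole steps the values stood at 5, 2 and 3 in controls and 6, 9 and 10 in knockouts, so the estimates rest on small numbers of fragments if a step is a fragment. The log2 fold change of 0.95 ± 0.31 (95% interval 0.24 to 1.65) did not pass (limma adjusted p = 0.0514). Hbegf passed without knockout 1 (1.15, adjusted p = 0.0431), with a pseudocount of 1 (0.71, adjusted p = 0.0488), without the variance trend (adjusted p = 0.0349), with a robust fit (adjusted p = 0.0488) and once genes at 0 in any library were left out (adjusted p = 0.0366). The alternatives spanned 0.0349 to 0.155.

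Ereg (ENSMUSG00000029377), epiregulin, measured 0.318, 0.110 and 0 FPKM in controls and 0.710, 0.453 and 0.345 in knockouts. Its steps were 3, 1 and 0 against 7, 4 and 3. The groups did not overlap, and the difference of mean log2 values was 0.66 with an exact two-sided permutation p of 0.1, the smallest possible here. Areg (ENSMUSG00000029378), amphiregulin, was listed at 0 in all controls and in knockout 3, and at 0.789 and 4.38 FPKM in knockouts 1 and 2, which stood at 1 and 5 steps. It reached the level needed for testing only through knockout 2. Its log2 fold change of 1.55 ± 0.70 did not pass (limma adjusted p = 0.129). Without knockout 3 it was 2.33 and passed (adjusted p = 0.0189, with alternatives spanning 0.0189 to 0.231). Without knockout 2 it was under the level for testing.

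Leukocytes can also make these ligands. The summed leukocyte markers were higher in every knockout than in any control. Hbegf and Ereg were too, and Areg overlapped. By limma, Hbegf and Areg were not called and Ereg was not tested. All 9 neutrophil markers in the table and all 10 monocyte and macrophage markers rose, with summed levels of 36.2 to 72.9 and 423 to 779 FPKM in controls and 1705 to 1793 and 1214 to 1357 in knockouts. The monocyte and macrophage sum leans on 1 gene, Fn1. It measured 304, 270 and 365 FPKM in controls and 512, 469 and 517 in knockouts. Basophil and mast cell markers summed to 0.142 to 0.552 FPKM in controls and 2.19 to 4.20 in knockouts. Of these 8 genes, 6 were at 0 in all controls, and the only 1 tested, the basophil protease Mcpt8, rose. Mcpt8 was at 0 in all controls too, so it reached the level for testing only through the knockouts. Mcpt4 was at 0 in every library and Tpsb2 was above 0 only in control 3. Gata2 had means of 0.181 FPKM in controls and 0.136 in knockouts. Of 5 tested T, NK and innate lymphoid markers 2 rose, and the sum of all 10 was 1.80 to 4.64 FPKM in controls and 10.5 to 13.9 in knockouts. Cd8a, Il1rl1 and Foxp3 were at 0 in all controls. Among the leukocyte markers that rose, Camp, Ltf, Mmp8, Cxcr2, F13a1 and Il7r had control means under 0.5 FPKM. These genes too were tested only through their knockout values. The part of these cells in the ligand values was not tested.

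Egfr (ENSMUSG00000020122), the receptor of these ligands and abundant on hepatocytes, measured 29.2, 49.1 and 45.7 FPKM in controls and 68.8, 52.6 and 53.8 in knockouts. All knockouts exceeded all controls, with knockout 2 close to control 2 and control 1 far below the other controls. The means were 41.3 ± 10.7 and 58.4 ± 9.02 FPKM. The log2 fold change of 0.52 ± 0.21 (95% interval 0.05 to 0.99) did not pass (limma adjusted p = 0.0964). Without control 1 it was 0.29 (adjusted p = 0.301), and of the alternatives run it passed only under quantile normalization (0.72, adjusted p = 0.0482).

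Erbb3 (ENSMUSG00000018166), the neuregulin receptor, measured 13.8, 12.4 and 11.98 FPKM in controls and 8.68, 8.40 and 9.72 in knockouts. The groups were clearly apart, with little spread within each. Its mean fell from 12.7 ± 0.941 to 8.93 ± 0.698 FPKM, with a log2 fold change of -0.49 ± 0.15 (95% interval -0.83 to -0.14, limma adjusted p = 0.0424). The call was lost without any 1 of the 6 libraries, with log2 fold changes of -0.54 to -0.43 and adjusted p-values of 0.0540 to 0.144. The alternatives spanned 0.0189 to 0.144. The ratio of Egfr to Erbb3 was 2.12, 3.97 and 3.81 in controls and 7.93, 6.26 and 5.54 in knockouts, likewise without overlap and likewise computed after the values were seen. The other ErbB receptors, Erbb2 and Erbb4, stayed under the level for testing, at 0.0904 to 0.348 and 0 to 0.474 FPKM over all 6 libraries.

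Hepatocytes express Met, Egfr, Erbb3 and Hgfac. Of 8 hepatocyte markers 1 rose and 2 fell (median log2 fold change -0.38), and their sums overlapped, at 15336 to 20575 FPKM in controls and 14440 to 15765 in knockouts. Whether the lower Hgfac, Met and Erbb3 values move with the share of hepatocyte RNA was not tested. In controls the members ranked Hgfac, Spint2, Egfr, Erbb3, Met, Hgf, Hbegf, Spint1, Ereg and Areg by mean FPKM. Neighbours in this order whose library ranges overlapped were Erbb3 and Met, and each of the 4 lowest genes with the next. In knockouts Hgf ranked just above Met and Areg just above Hbegf, and the overlapping neighbours were Spint2 and Egfr, Erbb3 and Hgf, Hgf and Met, and Areg and Hbegf.

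**Figure D3:**
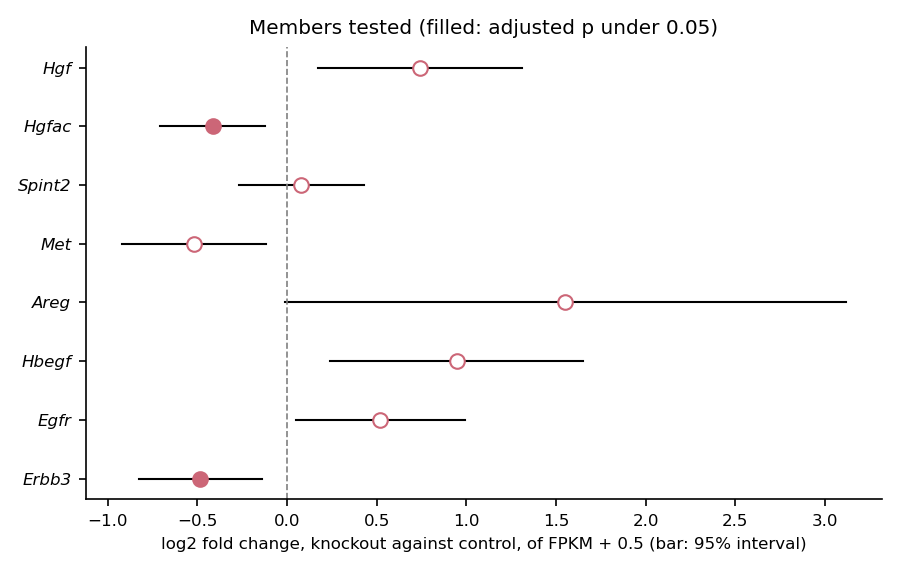
Log2 fold changes of the 8 tested members on the log2(FPKM + 0.5) scale, with 95% intervals; filled points passed at an adjusted p under 0.05. Hgfac (-0.41) and Erbb3 (-0.49) are filled, and the intervals of Hgf, Met, Hbegf and Egfr exclude 0 without passing once adjusted over all genes.

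Other genes of these circuits were grouped in 8 lists with 65 genes, of which 52 were tested. Of these, 22 rose, where 14.1% of all genes tested did, and 2 fell, and the median log2 fold change was 0.47. In this count, genes with a control mean under 0.5 FPKM, such as Plat, were tested only through their knockout values. Around HGF itself, the related ligand Mst1 (macrophage stimulating protein) measured 62.0 ± 9.08 and 52.8 ± 2.68 FPKM and did not pass (limma adjusted p = 0.302), and its receptor Mst1r was at 0 to 0.552 FPKM. Of 6 tested proteases able to activate HGF, 2 rose and 1 fell (median 0.03). The plasminogen activators Plat (0.403 ± 0.0747 to 2.01 ± 0.943 FPKM, limma adjusted p = 0.0121) and Plau (1.44 ± 0.800 to 3.51 ± 0.908 FPKM, adjusted p = 0.0330) rose from low levels. Plau was not called without control 1 or 2 or knockout 2 or 3 (log2 fold changes of 0.84 to 1.09). Plasma prekallikrein, Klkb1, fell from 103 ± 6.53 to 56.4 ± 10.9 FPKM (adjusted p = 0.00364).

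Of 3 other EGF-family ligands tested, 1 rose (median 0.85). Tgfa, the gene of transforming growth factor alpha, another EGFR ligand, measured 3.42, 3.23 and 4.39 FPKM in controls and 10.01, 5.31 and 8.998 in knockouts. Knockout 2 was nearest the controls, and the groups did not overlap (log2 fold change 1.01 ± 0.25, limma adjusted p = 0.0165). Tgfa was not called without control 1 or 2 or knockout 1 or 3 (log2 fold changes of 0.84 to 0.97, adjusted p-values of 0.0542 to 0.0625). The ERBB4 ligand Nrg4 measured 3.90 ± 2.05 and 4.83 ± 1.90 FPKM and did not pass (adjusted p = 0.599). Epgn and Nrg3 were listed at 0 in every library. Of 4 genes that take part in the shedding of such ligands, sheddases and their partners, 2 rose and none fell (median 0.70). Rhbdf2, which guides the sheddase ADAM17 to the surface, rose from 5.37 ± 0.335 to 10.2 ± 0.377 FPKM (adjusted p = 0.00365). The sheddase Adam10 rose from 7.78 ± 1.66 to 12.4 ± 1.51 FPKM (adjusted p = 0.0315), but was not called without any library except control 3 (log2 fold changes of 0.54 to 0.70).

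Among 15 genes of receptor feedback and turnover 4 rose and none fell (median 0.34). The ubiquitin ligase Cbl, which targets activated EGFR and MET for degradation, measured 0.342, 0.799 and 1.97 FPKM in controls and 3.77, 3.56 and 3.16 in knockouts (log2 fold change 1.52 ± 0.37, limma adjusted p = 0.0144). Its relative Cblb had a log2 fold change of 0.72 ± 0.22 (adjusted p = 0.0391), which was not called without any library but knockout 3 (0.66 to 0.78). The phosphatase Ptpn1, which dephosphorylates EGFR, rose from 11.2 ± 1.29 to 21.0 ± 1.31 FPKM (adjusted p = 0.00287). The receptor phosphatase Ptprj rose from 6.33 ± 2.06 to 11.4 ± 1.24 FPKM (adjusted p = 0.0220), but was not called without control 1 or 2 or knockout 1 or 3 (log2 fold changes of 0.67 to 0.80). Of 11 adaptors and cofactors tested 3 rose and none fell (median 0.08): the MET coreceptor Cd44 (7.12 ± 2.71 to 19.3 ± 1.79 FPKM, adjusted p = 0.00236), the integrin Itga6 (1.37 ± 0.334 to 3.67 ± 0.334 FPKM, adjusted p = 0.00577) and the adaptor Grb2 (14.1 ± 0.731 to 20.3 ± 0.999 FPKM, adjusted p = 0.0222). Grb2 was not called without control 1 or 2 or knockout 1 or 3 (log2 fold changes of 0.48 to 0.51). Cd44 is also abundant on leukocytes.

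Genes that respond to ERK, the kinase below these receptors and many others, rose in larger number, with 10 of 12 tested higher and 1 lower (median 1.37). Several of those that rose, Mmp9 among them, had control means under 0.5 FPKM. They were tested only through their knockout values, so this count leans towards rises. The transcription factor Egr1 measured 1.89, 1.35 and 0.936 FPKM in controls and 11.2, 22.0 and 12.4 in knockouts (log2 fold change 3.02 ± 0.29, limma adjusted p = 2.03e-04). Ier3 rose from 1.63 ± 1.004 to 12.6 ± 1.73 FPKM (adjusted p = 9.36e-04). Plaur, the urokinase receptor, measured 1.03, 0.357 and 1.91 FPKM in controls and 5.29, 9.93 and 5.97 in knockouts (adjusted p = 0.00247). The metalloproteinase Mmp9 rose from 0.329 ± 0.173 to 14.6 ± 2.92 FPKM (adjusted p = 1.97e-05). Mmp9 and Plaur are also expressed by neutrophils, whose 9 measured markers rose (median 5.05). Named after their values were seen, Dusp6, a phosphatase of ERK, rose from 14.7 ± 1.27 to 38.7 ± 4.18 FPKM (adjusted p = 3.23e-04), and the cyclin gene Ccnd1 was the 1 that fell, from 49.0 ± 3.55 to 33.2 ± 8.85 FPKM (adjusted p = 0.0461). Ccnd1 was not called without any library except knockout 1 (log2 fold changes of -0.64 to -0.42, adjusted p-values of 0.0891 to 0.123), and held without knockout 1 (-0.79, adjusted p = 0.0122). Of 9 tested proliferation markers 7 rose, with summed levels of all 10 of 7.93 to 16.1 FPKM in controls and 33.2 to 35.8 in knockouts. The part of leukocytes or dividing cells in these values was not tested.

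**Figure D4:**
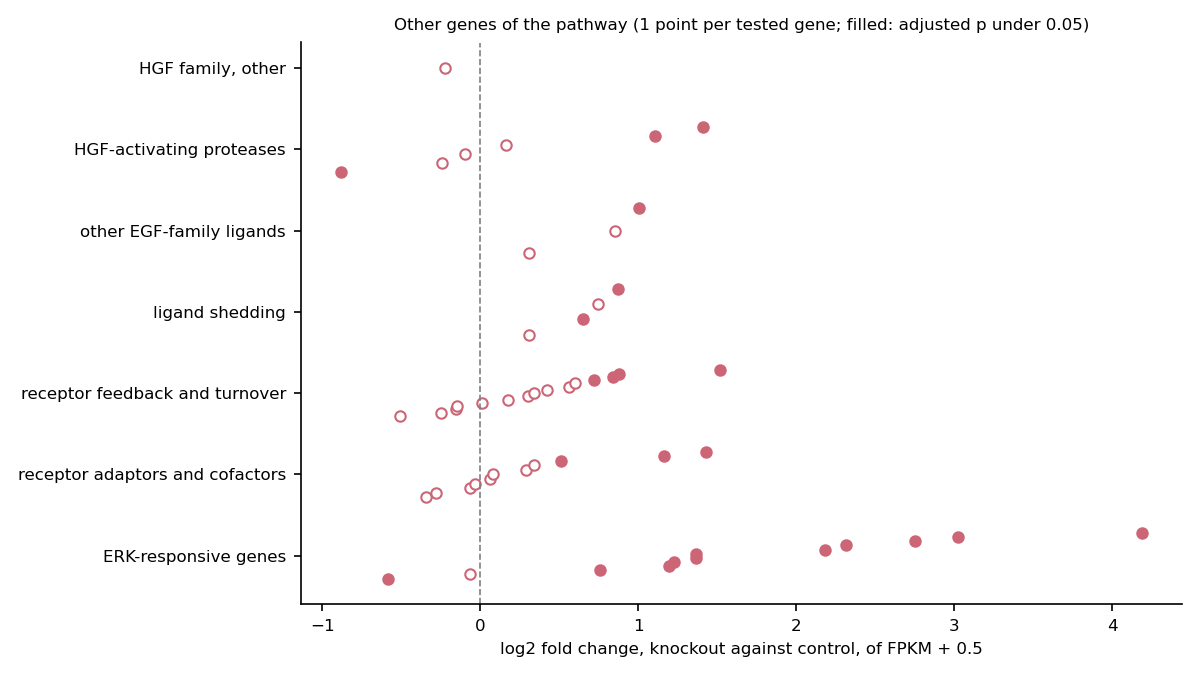
Log2 fold changes (horizontal axis, log2(FPKM + 0.5) scale) of the 52 tested pathway genes outside the members, grouped by list; filled points passed at an adjusted p under 0.05. ERK-responsive genes hold 10 of the 22 rises, with Mmp9 farthest to the right at 4.19. Genes with a control mean under 0.5 FPKM, Mmp9 among them, were tested only through their knockout values.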

How the data were processed

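Whole-liver RNA was made into 6 TruSeq v2 libraries and read from both ends, per the labels' protocols. The submitters' processing notes name build mm9 and, with no role or order, Cuffnorm 2.2.1, Cuffdiff 2.2.1, TopHat2 2.1.0 and Trimmomatic 0.33, but no annotation. The authors deposited FPKM per gene and library, which were used as they stand. Alb, listed at 0 in every control, was left out.

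Genes whose mean reached 0.5 FPKM were compared by limma 3.58.1 in R 4.3.3 (lmFit, eBayes with a trend, two-sided) on log2(FPKM + 0.5), and called where the p adjusted over all genes tested (Benjamini-Hochberg) was under 0.05. The procedure was tested on simulated data. Members under that level were compared by exact permutation (scipy 1.17.1). For low genes, FPKM times relative depth was divided by the largest unit that put all libraries within 0.06 of whole steps.

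The members, lists and tests were chosen with earlier results of these data known. Named are all members and, per pathway list, at most 4 called genes, by size of change, or with under 2 calls the 2 genes of highest mean. Libraries were taken as unpaired, since same-numbered libraries showed no shared deviation. Alternatives were other pseudocounts, filters, scalings and variance models, library weights, a replicate block, Alb kept, genes at 0 left out, and each library left out. Some list genes are not reported here.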

Additional observations from a re-analysis of the deposited data

How the results depend on the processing

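Over all alternatives run, Hgf, Met, Hgfac, Egfr, Areg, Hbegf, Erbb3, Ereg and Spint1 kept their direction where they could be computed. Spint2 reversed to -0.041 with libraries rescaled to the same total, and with 1 library left out ranged from -0.042 (without knockout 3) to 0.17. Nrg4 ranged from -0.041 (without control 3) to 0.66. Members called higher numbered 1 instead of 0 with a pseudocount of 1, quantile normalization, no variance trend, a robust fit, library weights or genes at 0 left out. Members called lower numbered 0 instead of 2 without a variance trend. Pathway genes called lower numbered 1 instead of 2 with a pseudocount of 0.1, no filter, no variance trend or library weights. With 1 library left out, members called higher ranged from 0 to 1, members called lower from 0 to 1, pathway genes called higher from 12 (without control 1; 13 without control 2 and 14 without knockout 1) to 21 and lower from 1 to 2, and all genes called higher from 1186 to 1644 and lower from 943 (without control 2; 996 without control 1) to 1497. Fewer samples limit these fits; the cause of the other changes was not tested. With all 6 libraries, the calls of Plau, Cblb, Adam10, Grb2 and Ccnd1 were lost under 2, 4, 2, 1 and 5 of 13 alternatives. With a pseudocount of 0.1 the differences of Spint1 and Ereg were -0.91 and 1.502. Deviations of same-numbered libraries correlated at -0.0100, -0.00012 and 0.0015, so no shared deviation was seen. These correlations cannot tell whether the numbers pair libraries by design. The replicate block gave 1575 genes higher and 1385 lower, and 0 members lower (Hgfac adjusted p = 0.0825, Erbb3 adjusted p = 0.0819, limma). Depth is unknown, and Spint1, Ereg, Areg and Hbegf rest on few steps.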
